A study of Mus musculus with 31 samples.

Results

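The subject is the interaction between a transgene and the loss of a gene in mouse retina at postnatal day 28 (P28). For every gene it is the log2 difference that the transgene made in Rorb-/- retinas (Rorb-/-;CrxpNrl minus Rorb-/-) less the log2 difference it made in +/+ retinas (+/+;CrxpNrl minus +/+). A positive interaction therefore means that the transgene's difference lay higher in Rorb-/- than in +/+ retinas, and a negative one that it lay lower, whichever way the gene itself moved. The arrays were chosen by the age and genotype in their labels: 15 of the 31 arrays of the series are from P28, namely 4 Rorb-/-;CrxpNrl, 4 Rorb-/-, 3 +/+;CrxpNrl and 4 +/+ mice. Rorb-/-;CrxpNrl mice carry the transgene and are labelled as lacking both copies of Rorb, Rorb-/- mice lack Rorb only, +/+;CrxpNrl mice carry the transgene with both Rorb copies, and +/+ mice have neither change. CrxpNrl is Nrl driven by the promoter of Crx. The sex of the mice, the deleted stretch of Rorb and the number of transgenic lines are not given in the sources used here. Each array holds RNA of both retinas of 1 mouse, so every value is an average over all retinal cell types. The number of arrays limits the precision.

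NRL is the transcription factor that directs photoreceptor precursors to become rods, the photoreceptors of dim light. RORβ, the nuclear receptor encoded by Rorb, acts before NRL. Mouse retinas without it make few rods and an excess of cone-like cells with blue opsin, lack normal outer segments, and have too few amacrine and horizontal cells. The Crx promoter is active in rod and cone precursors and in mature photoreceptors, and Nrl driven from it turns would-be cones into rods in otherwise normal mice. The interaction asks whether the same Nrl transgene changed the retina differently when RORβ was missing.

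Nrl itself had log2 signals of 11.63, 11.86, 9.39 and 10.44 in Rorb-/-;CrxpNrl mice 1 to 4, against 9.74, 8.70, 9.72 and 9.97 in Rorb-/- mice. In +/+;CrxpNrl mice it had 13.32, 12.99 and 13.37, against 13.36, 13.09, 13.32 and 13.28 in +/+ mice. Rorb-/-;CrxpNrl mouse 3 lay within the range of the Rorb-/- mice, and the +/+ groups overlapped near the top of the array's signal range. The interaction of Nrl was 1.34 ± 0.59 (limma, SE) with an adjusted p of 0.199, and 1.81 with an adjusted p of 0.0442 without transgenic Rorb-/- mouse 3. Whether this probe set reads the transgene's own transcript is not given in the sources used here. Rorb had 8.15, 8.58, 8.27 and 8.27 in Rorb-/-;CrxpNrl mice, against 9.66, 9.56, 9.98 and 9.09 in Rorb-/- mice. It had 11.06, 10.84 and 11.18 in +/+;CrxpNrl mice, against 10.68, 10.39, 10.81 and 10.45 in +/+ mice. Every mouse labelled Rorb-/- lay below every mouse with intact Rorb, although the signal in Rorb-/- retinas stayed well above 4.01, the mean lower quartile of the arrays. Where this probe set lies relative to the deleted stretch is not given, so its level is a limited check of the genotype. The interaction of Rorb was -1.70 ± 0.28 with an adjusted p of 0.000435 in limma, and it stayed called without any 1 of the 15 mice.

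The Rorb-/-;CrxpNrl retinas were more uneven than the other groups. Their median SD over genes was 0.151, against 0.126 in Rorb-/-, 0.114 in +/+;CrxpNrl and 0.120 in +/+ mice. Mice 1 and 2 stood apart from mice 3 and 4 in many photoreceptor genes. The mean level of 11 rod phototransduction genes was 11.89, 11.47, 9.50 and 10.14 in Rorb-/-;CrxpNrl mice 1 to 4, against 9.88 to 10.18 in Rorb-/- mice. It was 12.74 to 12.82 in +/+;CrxpNrl mice, against 12.64 to 12.81 in +/+ mice. Over all genes, the deviations from the Rorb-/-;CrxpNrl mean correlated at 0.07 between mice 1 and 2 and at 0.30 between mice 3 and 4, and at -0.72 to -0.50 between the other pairs, which describes 4 arrays that share that mean. No mouse was removed and no group was split. Each result was also computed without each P28 mouse in turn, and where a left-out mouse is named below, transgenic Rorb-/- and transgenic +/+ mice are those carrying CrxpNrl.

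Of 18193 genes, 996 had an interaction at an adjusted p under 0.05 (limma, Benjamini-Hochberg over all genes), which is 5.47% of those tested and is what "called" means below. Positive calls numbered 537, or 2.95% of the genes, and negative calls 459, or 2.52%. The median interaction over all genes was 0.032. Calls with a size of at least 1 log2 unit numbered 173, or 0.951%, of which 42 (0.231%) were positive and 131 (0.72%) negative. The total was 2078 without transgenic Rorb-/- mouse 1 and 618 without its mouse 4. Positive calls numbered 1319 without transgenic Rorb-/- mouse 1, 350 without its mouse 3, 302 without its mouse 4 and 313 without transgenic +/+ mouse 1. Negative calls numbered 759 without transgenic Rorb-/- mouse 1. With only the P28 arrays in the fit there were 400 calls, 175 positive and 225 negative, and with array weights there were 2312, 1419 positive and 893 negative.

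Most genes with a called interaction were also called with the transgene in Rorb-/- retinas, and few were called with it in +/+ retinas. A difference in +/+ retinas that was not called can still add to an interaction. Lhx1, for example, had 0.83 in +/+ retinas, not called, and -0.63 in Rorb-/- retinas. With the transgene 3493 genes, 19.2%, changed in Rorb-/- retinas, and 40 genes, 0.22%, changed in +/+ retinas. In Rorb-/- retinas 2134 genes, 11.7%, rose and 1359, 7.47%, fell. In +/+ retinas 4 genes, 0.022%, rose and 36, 0.198%, fell. The count for +/+ retinas was 19 without transgenic +/+ mouse 1 and 25 without its mouse 3, 25 with only the P28 arrays and 77 with array weights. These comparisons share no arrays with each other, but each shares all its arrays with the interaction, so the counts that follow describe the calls and do not support them. Among the 537 positive genes, 482 rose with the transgene in Rorb-/- retinas and were not called in +/+ retinas, and 53 were called in neither. The other 2 were Arr3, which fell in both, and Tecrl, which fell in +/+ retinas and was not called in Rorb-/- retinas. Among the 459 negative genes, 416 fell in Rorb-/- retinas and were not called in +/+ retinas, 26 were called in neither, and 16 fell in both. The remaining negative gene was Ccdc191, which rose in +/+ retinas and was not called in Rorb-/- retinas. Tecrl and Ccdc191 were singled out after their values were seen. Tecrl had an interaction of 1.11 ± 0.21 (adjusted p = 0.00213, limma). It averaged 3.62 ± 0.24 in Rorb-/-;CrxpNrl and 3.53 ± 0.25 in Rorb-/- mice (SD, n = 4 each), both near the lower end of the signal range. In intact retinas it averaged 4.51 ± 0.37 in +/+;CrxpNrl (n = 3) and 5.53 ± 0.14 in +/+ mice (n = 4). The interaction of Ccdc191 was -1.36 ± 0.28 (adjusted p = 0.00362, limma), but its other 2 probe sets gave -0.07 and -0.06 and the mean of its probe sets -0.50.

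**Figure D1:**
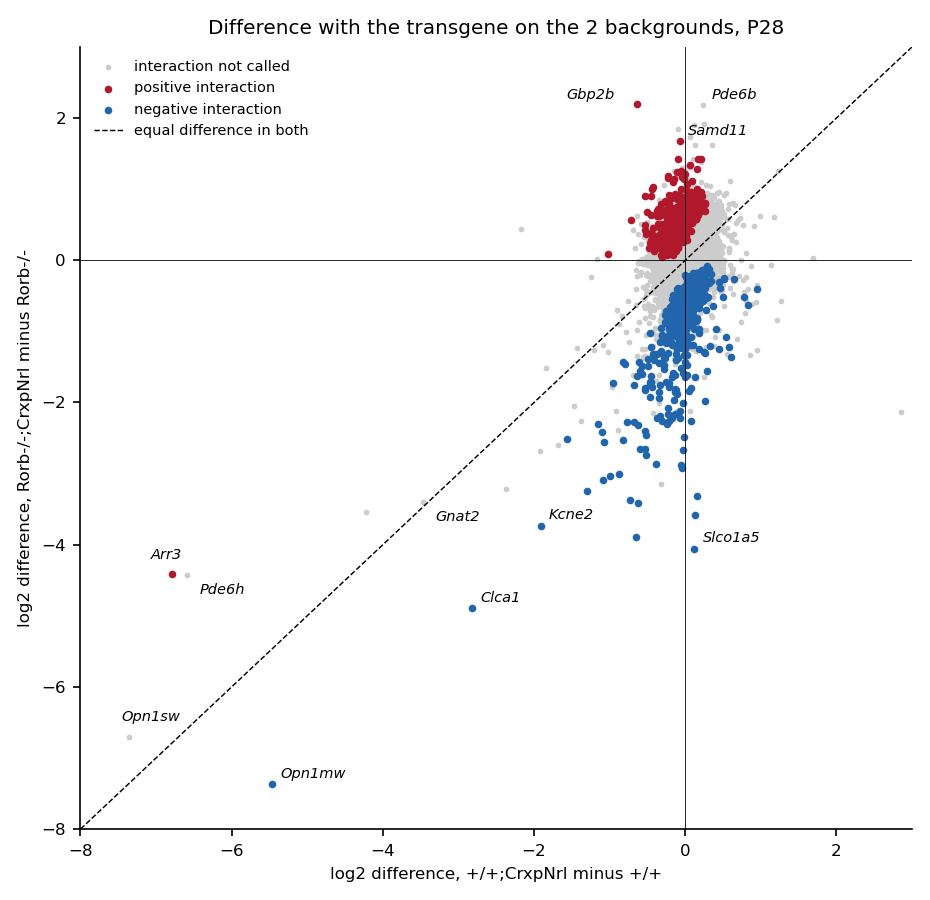
Log2 difference with the transgene in Rorb-/- retinas (vertical) against that in +/+ retinas (horizontal), 1 dot for each of 18193 genes, with the 537 positive calls in red, the 459 negative calls in blue, other genes in grey and the line of equal differences dashed. Most coloured dots lie along the vertical axis, where the difference in +/+ retinas is near 0, and the cone genes at the lower left were lower with the transgene on both backgrounds.

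Set against +/+ retinas, 155 of the negative genes were raised in Rorb-/- retinas and not called in Rorb-/-;CrxpNrl retinas. A further 125 were not called in Rorb-/- and were below +/+ levels in Rorb-/-;CrxpNrl retinas. There were also 61 raised in both, 56 lowered in Rorb-/-;CrxpNrl and raised in Rorb-/-, 37 lowered in both and 25 called in neither. Of the positive genes, 198 were raised against +/+ in both, 179 were raised in Rorb-/-;CrxpNrl and not called in Rorb-/-, and 69 were not called in Rorb-/-;CrxpNrl and lowered in Rorb-/-. Another 48 were lowered in both, 32 were called in neither, and 10 were raised in Rorb-/-;CrxpNrl and lowered in Rorb-/-. Arr3 alone among the positive genes was lowered in Rorb-/-;CrxpNrl and raised in Rorb-/- retinas. In whole retinas, fewer cells of a type and less RNA in each cell cannot be told apart.

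Signals near either end of the array's range can shrink a difference. A group mean of 12.62 or more, within 1.5 log2 units of the lowest array maximum, was taken as near the ceiling, and a group mean under 4.01 as near the floor. Of the 996 called genes, 15 had a P28 group near the ceiling (7 positive and 8 negative), 52 had one near the floor (20 positive and 32 negative), and 929 had neither. Genes near the floor made up 5.22% of the called genes and 21.5% of all genes, and genes near the ceiling 1.51% and 0.467%. With a margin of 1 log2 unit and the 35th percentile as the floor, 6 called genes were near the ceiling and 94 near the floor. Genes said below to be near an end had at least 1 P28 group mean there.

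Rod phototransduction genes, which encode the light-signalling chain of rods, had no called interaction in limma among the 11 measured, although 6 had an unadjusted p under 0.05, as 3491 (19.2%) of all genes did. Their median interaction was 1.24, against 0.032 over all genes, and 8 of the 11 values were positive. With the transgene 5 of them rose and 2 fell in Rorb-/- retinas (11.7% and 7.47% of all genes). None was called in +/+ retinas, where 7 of the 11 were near the ceiling. Pde6b, a catalytic subunit of the rod phosphodiesterase, had 12.16, 12, 9.14 and 9.76 in Rorb-/-;CrxpNrl mice, against 8.34, 8.77, 8.44 and 8.77 in Rorb-/- mice. It had 13.39, 13.42 and 13.47 in +/+;CrxpNrl mice, against 13.04, 13.10, 13.32 and 13.31 in +/+ mice. All Rorb-/-;CrxpNrl mice lay above all Rorb-/- mice for this gene and below all +/+ mice, and mice 1 and 2 lay far above mice 3 and 4. The interaction of Pde6b was 1.95 ± 0.79 (95% interval 0.33 to 3.57, adjusted p = 0.155).

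The channel and exchanger genes of rods had similar values. Cnga1, which forms the light-regulated cation channel of rods with Cngb1, had 10.86, 10.93, 8.13 and 9 in Rorb-/-;CrxpNrl mice, against 7.84, 7.57, 7.72 and 8.39 in Rorb-/- mice. In intact retinas it lay at 12.05 to 12.12 in +/+;CrxpNrl, against 12.04 to 12.31 in +/+ mice. Its interaction of 1.95 ± 0.64 had an adjusted p of 0.0708, and mouse 3 overlapped the Rorb-/- range. The interaction was 1.5 ± 0.55 for Slc24a1, the rod sodium, calcium and potassium exchanger (adjusted p = 0.111), 1.29 ± 0.49 for Cngb1, the other channel subunit (adjusted p = 0.123), and 1.24 ± 0.53 for Guca1b, a guanylate cyclase activator (adjusted p = 0.18). Without transgenic Rorb-/- mouse 3 each of these passed the test: Cnga1 with 2.48 (adjusted p = 0.0105), Slc24a1 with 2.02 (adjusted p = 0.00787), Cngb1 with 1.69 (adjusted p = 0.0224) and Guca1b with 1.71 (adjusted p = 0.0254).

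Gnat1, the rod transducin alpha subunit, had 13.66, 13.48, 11.63 and 12.38 in Rorb-/-;CrxpNrl mice, against 11.55, 11.33, 11.39 and 11.65 in Rorb-/- mice. Its interaction of 1.30 ± 0.74 (adjusted p = 0.361) involves 3 groups near the ceiling. Other members had values on the opposite side of 0: Gngt1, the rod transducin gamma subunit, had -1.08 ± 0.38 (adjusted p = 0.0917), Pde6g, the inhibitory phosphodiesterase subunit, -0.79 ± 0.42 (adjusted p = 0.309) and Sag, the rod arrestin, -0.27 ± 0.25 (adjusted p = 0.626). Without transgenic Rorb-/- mouse 1, Gngt1 was called at -1.51 (adjusted p = 0.000232) and Pde6g at -1.20 (adjusted p = 0.0163). Without transgenic Rorb-/- mouse 3 they were smaller and not called, with -0.69 for Gngt1 (adjusted p = 0.197) and -0.35 for Pde6g (adjusted p = 0.651). In Rorb-/-;CrxpNrl mouse 1 Gngt1 read 12.54, against 11.63, 10.07 and 10.72 in mice 2 to 4 and 12.09 to 12.31 in Rorb-/- mice. The rod list thus held members of both signs, and the number called ranged from 0 to 4 positive and 0 to 2 negative over the 25 settings run.

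**Figure D2:**
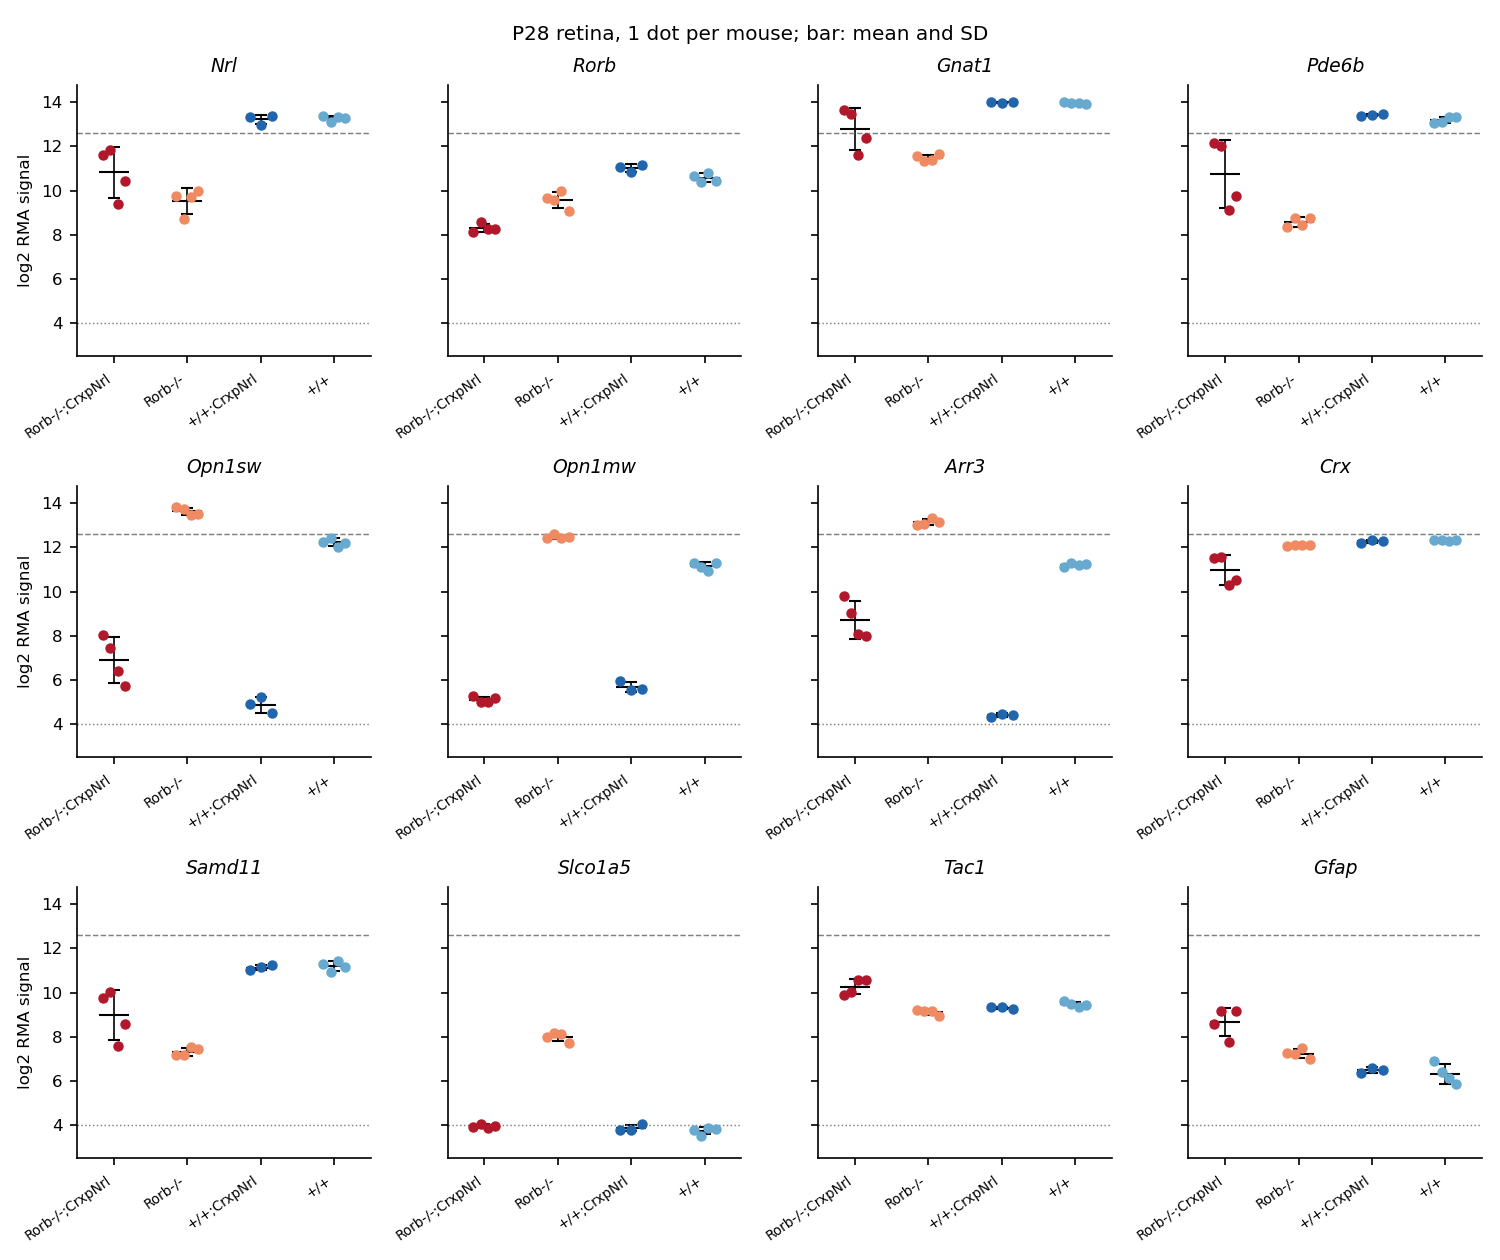
Log2 RMA signal of 12 genes in each P28 mouse, with the mean and SD of each group; the dashed line at 12.62 marks the ceiling and the dotted line at 4.01 the floor. Opn1mw, Opn1sw and Arr3 are lower with the transgene on both backgrounds, Crx and Slco1a5 are lower with it in Rorb-/- retinas, and the Rorb-/-;CrxpNrl mice scatter widely for Nrl, Gnat1, Pde6b and Samd11.

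Cone genes were lower with the transgene on both backgrounds, and the sizes differed gene by gene. Of 16 measured cone phototransduction and marker genes, 15 fell with the transgene in Rorb-/- retinas and 13 fell in +/+ retinas (7.47% and 0.198% of all genes). The interaction was called for 7 of the 16, 6 negative and 1 positive (2.52% and 2.95% of all genes), and the median was -0.62. Opn1mw, the green cone opsin, had 5.28, 4.99, 5.00 and 5.17 in Rorb-/-;CrxpNrl mice, against 12.41, 12.59, 12.42 and 12.49 in Rorb-/- mice. It had 5.94, 5.55 and 5.60 in +/+;CrxpNrl mice, against 11.28, 11.12, 10.93 and 11.30 in +/+ mice. The transgenic groups lay close together at the bottom, and the Rorb-/- mice lay above the +/+ mice. The difference with the transgene was -7.37 ± 0.25 in Rorb-/- and -5.46 ± 0.27 in +/+ retinas, which gave an interaction of -1.91 ± 0.37 (adjusted p = 0.00254). Opn1sw, the blue cone opsin, had 8.06, 7.47, 6.42 and 5.74 in Rorb-/-;CrxpNrl mice, against 13.81, 13.73, 13.46 and 13.52 in Rorb-/- mice. It had 4.90, 5.24 and 4.51 in +/+;CrxpNrl mice, against 12.26, 12.44, 12.03 and 12.22 in +/+ mice. All Rorb-/-;CrxpNrl mice kept more Opn1sw signal than any +/+;CrxpNrl mouse, and the Rorb-/- mice were near the ceiling. Its interaction of 0.65 ± 0.82 (95% interval -1.04 to 2.33, adjusted p = 0.754) was not called, and a 2nd probe set gave -2.19, so its sign depends on the probe set. It was 0.27 without transgenic Rorb-/- mouse 1 (adjusted p = 0.898) and 1.04 without mouse 4 (adjusted p = 0.608).

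Arr3, cone arrestin, was the cone gene with a positive call. It had 9.82, 9.04, 8.09 and 8 in Rorb-/-;CrxpNrl mice, against 13.01, 13.07, 13.35 and 13.16 in Rorb-/- mice. It had 4.33, 4.48 and 4.44 in +/+;CrxpNrl mice, against 11.12, 11.28, 11.20 and 11.23 in +/+ mice. No groups overlapped, and the Rorb-/- mice were near the ceiling. The interaction was 2.38 ± 0.64 (adjusted p = 0.0243, limma), with a difference of -4.41 ± 0.43 in Rorb-/- and -6.79 ± 0.47 in +/+ retinas. It was not called without transgenic +/+ mouse 1 (2.34, adjusted p = 0.0582), with array weights (2, adjusted p = 0.0646) or with its probe sets averaged (0.78, adjusted p = 0.423), and its 3 probe sets ranged from -1.26 to 2.38. Pde6h, the inhibitory subunit of cone phosphodiesterase, had the same order of groups and an interaction of 2.16 ± 0.72 that was not called (adjusted p = 0.0741). It was called at 2.5 without transgenic Rorb-/- mouse 4 (adjusted p = 0.0499), at 2.16 with only the P28 arrays (adjusted p = 0.0148) and at 2.29 with the replicate number as a block (adjusted p = 0.0416). Gnat2, the cone transducin alpha subunit, averaged differences of -3.40 ± 0.19 in Rorb-/- and -3.47 ± 0.21 in +/+ retinas. Its interaction of 0.07 ± 0.28 had a 95% interval of -0.51 to 0.65.

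The remaining called cone genes were negative, and in each the Rorb-/- mice lay above all +/+ mice. Kcne2, an accessory subunit of potassium channels, had 7.77, 7.80, 7.5 and 7.48 in Rorb-/-;CrxpNrl mice, against 11.42, 11.24, 11.36 and 11.47 in Rorb-/- mice. It had 7.97, 7.91 and 7.92 in +/+;CrxpNrl mice, against 9.87, 9.85, 9.77 and 9.89 in +/+ mice. The spread within each group was small beside the interaction of -1.82 ± 0.15 (adjusted p = 5.19e-09). Ccdc136 averaged 9.12 ± 0.06 in Rorb-/-;CrxpNrl and 11.78 ± 0.09 in Rorb-/- mice, and 9.21 ± 0.20 in +/+;CrxpNrl and 9.81 ± 0.07 in +/+ mice (SD). Its interaction was -2.05 ± 0.14 (adjusted p = 7.64e-11). Clca1, annotated as a chloride channel accessory gene, averaged 5.74 ± 0.26 in Rorb-/-;CrxpNrl and 10.63 ± 0.28 in Rorb-/- mice, and 3.29 ± 0.28 in +/+;CrxpNrl and 6.11 ± 0.35 in +/+ mice. Its interaction was -2.07 ± 0.32 (adjusted p = 0.000212), with the +/+;CrxpNrl mean under the floor. Gnb3, the beta subunit of cone transducin, had an interaction of -0.61 ± 0.11 (adjusted p = 0.00125). Gngt2, the gamma subunit, had -1.49 ± 0.31 (adjusted p = 0.00483, and 0.0555 with only the P28 arrays). A further 5 cone genes were not called: Cngb3 (-0.91, adjusted p = 0.103), Otop3 (-0.85, adjusted p = 0.32), Rxrg (-0.63, adjusted p = 0.052), Slc24a2 (-0.56, adjusted p = 0.4) and Thrb (-0.54, adjusted p = 0.292). Pde6c, the catalytic subunit of cone phosphodiesterase, had 0.68 (adjusted p = 0.368). Without transgenic Rorb-/- mouse 1, Cngb3 (-1.14, adjusted p = 0.014), Otop3 (-1.34, adjusted p = 0.00852) and Rxrg (-0.72, adjusted p = 0.0152) were called, and Rxrg was also called without +/+ mouse 2 (-0.72, adjusted p = 0.0317). Otop3 was at -0.47 without transgenic Rorb-/- mouse 3 (adjusted p = 0.634), and Slc24a2 at -0.37 without +/+ mouse 4 (adjusted p = 0.628).

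Photoreceptor transcription factors mostly had interactions below 0. Among 16 measured, 6 were called negative and 1 positive (2.52% and 2.95% of all genes), with a median of -0.59. With the transgene 2 rose and 10 fell in Rorb-/- retinas (11.7% and 7.47% of all genes), while none was called in +/+ retinas. The list includes Rorb and Nrl, the genes altered in these mice. Rorb is among the negative calls and among the genes that fell. Nrl is among those that rose, and its interaction was not called. Crx, the homeobox activator of rod and cone genes, had 11.52, 11.58, 10.28 and 10.54 in Rorb-/-;CrxpNrl mice, against 12.06, 12.09, 12.13 and 12.10 in Rorb-/- mice. It had 12.19, 12.32 and 12.31 in +/+;CrxpNrl mice, against 12.35, 12.34, 12.29 and 12.34 in +/+ mice. The first of these groups lay well below the other 3, which all lay just above 12. Among those, the Rorb-/- mice lay slightly below every intact mouse, and their difference from +/+ mice of -0.24 was not called. The interaction of Crx was -1.05 ± 0.24 (adjusted p = 0.00846, and 0.0937 with only the P28 arrays). Samd11, a SAM-domain protein that works with Polycomb repressors in photoreceptors, had 9.78, 10.04, 7.60 and 8.58 in Rorb-/-;CrxpNrl mice, against 7.18, 7.16, 7.53 and 7.43 in Rorb-/- mice. It had 11.04, 11.14 and 11.23 in +/+;CrxpNrl mice, against 11.30, 10.93, 11.43 and 11.18 in +/+ mice. Each Rorb-/-;CrxpNrl mouse exceeded the Rorb-/- mice, mouse 3 by little, and none reached the intact groups. The interaction of Samd11 was 1.75 ± 0.42 (adjusted p = 0.0125, and 0.105 with only the P28 arrays), and 1.05 with the mean of its probe sets (adjusted p = 0.0207).

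The remaining called factors were lower with the transgene in Rorb-/- retinas. Prdm1, a repressor that keeps photoreceptor precursors from becoming bipolar cells, averaged 6.71 ± 0.84 in Rorb-/-;CrxpNrl and 8.55 ± 0.25 in Rorb-/- mice, and 7.34 ± 0.23 in +/+;CrxpNrl and 7.29 ± 0.13 in +/+ mice (SD). Its interaction was -1.88 ± 0.36 (adjusted p = 0.00185). Sall3, a zinc-finger factor of cones and horizontal cells, averaged 5.83 ± 0.27 in Rorb-/-;CrxpNrl and 7.54 ± 0.18 in Rorb-/- mice, and its interaction was -1.24 ± 0.18 (adjusted p = 7.05e-05). Both genes were above +/+ levels in Rorb-/- retinas and not called against +/+ in Rorb-/-;CrxpNrl retinas. Ankrd33, a nuclear inhibitor of CRX, averaged 8.71 ± 1.08 in Rorb-/-;CrxpNrl and 10.58 ± 0.07 in Rorb-/- mice, and 10.78 ± 0.13 in +/+;CrxpNrl and 10.89 ± 0.09 in +/+ mice. It was below +/+ levels in Rorb-/-;CrxpNrl retinas, with an interaction of -1.77 ± 0.39 (adjusted p = 0.00648, and 0.0837 with only the P28 arrays). Mef2d, a MADS-box factor that works with CRX, had -0.70 ± 0.16 (adjusted p = 0.00847), and -0.36 (adjusted p = 0.128) with the mean of its probe sets. Neurod1, Rax, Samd7 and Mef2c were not called, at -0.51, -0.36, -0.77 and 0.64. Neurod1 was called at -0.72 without transgenic Rorb-/- mouse 1 (adjusted p = 0.00817) and was at -0.33 without its mouse 3 (adjusted p = 0.411). Samd7 was at -1.19 without mouse 1 of that group (adjusted p = 0.118) and at -0.14 without mouse 3 (adjusted p = 0.907). Mef2c was at 0.32, 0.37 and 1.07 without mice 1, 2 and 3 of that group (adjusted p = 0.762, 0.745 and 0.161).

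CRX binds DNA with a TAATCC core, read GGATTA on the other strand, and NRL binds elements with a TGCTGA core, read TCAGCA on the other strand. The promoters of the positive call Samd11 and of the negative calls Crx, Rbp3 and Guca1a are shown because these photoreceptor genes were called in opposite directions and all hold a CRX-type core. The sequences are from RefSeq (GRCm38.p6) and run 5′ to 3′ from 250 bases before to 50 bases after the annotated start, with the cores in capitals. They lie at chr4:156255293-156255592 on the minus strand for Samd11, chr7:15879906-15880205 on the minus strand for Crx, chr14:33953753-33954052 on the plus strand for Rbp3 and chr17:47400557-47400856 on the minus strand for Guca1a.
Samd11: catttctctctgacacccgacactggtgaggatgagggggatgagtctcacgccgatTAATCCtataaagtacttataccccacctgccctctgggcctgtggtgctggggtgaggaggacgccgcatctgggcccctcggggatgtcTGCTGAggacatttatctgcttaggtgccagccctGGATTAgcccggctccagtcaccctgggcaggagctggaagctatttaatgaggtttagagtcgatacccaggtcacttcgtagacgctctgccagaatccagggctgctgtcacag
Crx: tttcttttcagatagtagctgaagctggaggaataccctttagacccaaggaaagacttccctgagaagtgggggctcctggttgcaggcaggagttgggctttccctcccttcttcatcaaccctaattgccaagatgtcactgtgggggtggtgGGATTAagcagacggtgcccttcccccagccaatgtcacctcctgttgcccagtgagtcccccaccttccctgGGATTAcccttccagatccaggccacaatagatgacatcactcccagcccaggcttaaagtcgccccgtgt
Rbp3: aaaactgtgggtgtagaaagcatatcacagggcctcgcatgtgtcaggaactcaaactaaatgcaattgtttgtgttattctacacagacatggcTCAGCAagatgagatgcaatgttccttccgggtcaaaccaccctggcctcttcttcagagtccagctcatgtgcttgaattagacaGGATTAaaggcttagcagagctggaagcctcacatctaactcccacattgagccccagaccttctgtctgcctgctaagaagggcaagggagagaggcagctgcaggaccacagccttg
Guca1a: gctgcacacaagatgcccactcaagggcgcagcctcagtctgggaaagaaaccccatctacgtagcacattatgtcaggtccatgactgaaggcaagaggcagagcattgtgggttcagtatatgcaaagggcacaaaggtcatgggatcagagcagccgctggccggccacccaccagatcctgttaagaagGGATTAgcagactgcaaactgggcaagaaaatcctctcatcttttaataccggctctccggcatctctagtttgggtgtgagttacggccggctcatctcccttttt
In Samd11 the CRX-type cores begin 193 and 67 bases before the start and the NRL-type core 102 bases before it. Crx has CRX-type cores 94 and 21 bases before its own start, Rbp3 an NRL-type core at 155 and a CRX-type core at 69 bases before it, and Guca1a a CRX-type core at 57 bases. A CRX-type core was found in 6.03% of 14452 promoters of tested genes, in 4.12% of 437 promoters of positive genes and in 7.07% of 368 promoters of negative genes. An NRL-type core was found in 17.2%, 18.3% and 15.8% of the same promoters. Among listed promoters, a CRX-type core was in 4 of 7 rod, 3 of 11 cone and 4 of 13 transcription factor genes. An NRL-type core was in 2, 1 and 4 of these. Both strands were searched, the cores do not overlap each other in the 4 promoters shown, and a match describes the letters only.

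Genes shared by rods and cones, and genes of the outer segment, were lower in Rorb-/-;CrxpNrl retinas than in the other 3 groups in several cases. Of 9 measured phototransduction genes that both cell types use, 2 were called negative (2.52% of all genes) and none positive. All 9 values were below 0, with a median of -0.58. Over the 25 settings 1 to 6 of them were called negative. Guca1a, a guanylate cyclase activator, had 12.80, 12.26, 10.76 and 10.94 in Rorb-/-;CrxpNrl mice, against 13.04, 13.23, 13.36 and 13.45 in Rorb-/- mice. It had 13.42, 13.56 and 13.37 in +/+;CrxpNrl mice, against 13.51, 13.64, 13.38 and 13.36 in +/+ mice. The other 3 groups overlapped near the ceiling, and the mice with both changes lay below them. The interaction was -1.55 ± 0.42 (adjusted p = 0.0239). Guca1a lost its call with only the P28 arrays (adjusted p = 0.102) and without transgenic Rorb-/- mouse 3 (-1.24, adjusted p = 0.0624), its mouse 4 (-1.30, adjusted p = 0.0687) or transgenic +/+ mouse 2 (-1.5, adjusted p = 0.0622). Pde6d, a chaperone that carries phosphodiesterase to the outer segment, averaged -0.80 ± 0.09 with the transgene in Rorb-/- retinas and -0.12 ± 0.10 in +/+ retinas, an interaction of -0.68 ± 0.13 (adjusted p = 0.00283). Grk1, the rhodopsin kinase of rods and cones, had -1.87 and was not called (adjusted p = 0.0908), but was at -2.19 without transgenic Rorb-/- mouse 1 (adjusted p = 0.0273).

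Of 19 measured outer segment and cilium genes, 3 were called negative (2.52% of all genes) and none positive, with a median of -0.71. In limma 12 of them had an unadjusted p under 0.05 (19.2% of all genes did). The negative calls of this list ranged from 1 to 12 over the 25 settings. Pcdh15, a protocadherin of the photoreceptor and hair cell, had 9.16, 9.27, 7.99 and 8.19 in Rorb-/-;CrxpNrl mice, against 10.65, 10.75, 10.91 and 10.93 in Rorb-/- mice. In +/+;CrxpNrl mice it had 9.26, 9.40 and 9.35, against 9.34, 9.69, 9.50 and 9.38 in +/+ mice. It was above +/+ levels in all Rorb-/- mice and below them in all Rorb-/-;CrxpNrl mice, with an interaction of -2.02 ± 0.28 (adjusted p = 2.85e-05). Rp1l1, a protein of the photoreceptor axoneme, had -1.77 ± 0.49 (adjusted p = 0.0321), and Tulp1, which acts in transport to the outer segment, had -1.45 ± 0.41 (adjusted p = 0.0326). Neither call was firm: with only the P28 arrays the adjusted p was 0.178 for Rp1l1 and 0.175 for Tulp1, and Tulp1 had 0.0518, at -1.41, with the replicate number as a block. Leaving out any 1 of 8 mice ended the call of Rp1l1 (-1.77 to -1.54, adjusted p 0.0502 to 0.0877), namely transgenic Rorb-/- mouse 4, Rorb-/- mice 3 and 4, all transgenic +/+ mice, and +/+ mice 3 and 4. Leaving out any 1 of 10 mice ended that of Tulp1 (-1.51 to -1.06, adjusted p 0.0519 to 0.0905), namely transgenic Rorb-/- mice 3 and 4, Rorb-/- mice 3 and 4, all transgenic +/+ mice, and +/+ mice 1, 2 and 3. Prph2, the tetraspanin of outer segment discs, had the lowest value of all genes at -4.99 ± 1.89 and was not called (adjusted p = 0.123). Its probe set read 5.87, 4.42, 4.17 and 4.36 in Rorb-/-;CrxpNrl mice, against 5.59, 5.42, 11.25 and 5.07 in Rorb-/- mice, and 10.05, 9.10 and 12.78 in +/+;CrxpNrl, against 6.66, 8.05, 8.86 and 7.59 in +/+ mice.

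Ribbon synapse genes, which build the photoreceptor's output terminal, had 4 negative calls and no positive ones among 19 measured. Negative calls made up 2.52% of all genes. The median of the list was -0.09, with 2 to 6 negative calls over the 25 settings. Egflam, the matrix protein pikachurin, averaged 7.87 ± 1.06 in Rorb-/-;CrxpNrl and 9.49 ± 0.10 in Rorb-/- mice, and 9.78 ± 0.26 in +/+;CrxpNrl and 9.75 ± 0.15 in +/+ mice (SD). Its interaction was -1.64 ± 0.40 (adjusted p = 0.0147, and 0.105 with only the P28 arrays). Elfn1, a rod synapse adhesion protein, averaged 7.08 ± 0.58 in Rorb-/-;CrxpNrl and 8.37 ± 0.12 in Rorb-/- mice, with an interaction of -1.55 ± 0.27 (adjusted p = 0.000843). In both genes the Rorb-/- mice overlapped the +/+ mice and the Rorb-/-;CrxpNrl mice lay below them. Of 12 retinoid cycle genes, 1 was called, against 5.47% of all genes, and 0 to 2 were called negative over the 25 settings. That gene was Rbp3, the retinoid-binding protein that photoreceptors secrete and whose promoter is printed above. It had 12.46, 12.44, 10.90 and 11.03 in Rorb-/-;CrxpNrl mice, against 13.02, 12.86, 13.45 and 13.40 in Rorb-/- mice. It had 13.01, 12.93 and 13.36 in +/+;CrxpNrl mice, against 13.08, 13.01, 13.05 and 13.15 in +/+ mice, and these 3 groups overlapped near the ceiling. The interaction was -1.5 ± 0.37 (adjusted p = 0.015, and 0.0835 with only the P28 arrays).

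Of 15 glycolysis genes, whose median was -0.02, 1 was called, against 5.47% of all genes. That gene was Hk2, the hexokinase of the photoreceptor's glycolysis. It had 10.23, 9.85, 8.18 and 8.24 in Rorb-/-;CrxpNrl mice, against 11.13, 11.09, 11.76 and 11.58 in Rorb-/- mice. It had 11.48, 11.59 and 11.81 in +/+;CrxpNrl mice, against 11.65, 11.67, 11.35 and 11.54 in +/+ mice. Again the mice with both changes alone lay low, with mice 3 and 4 lowest, and the interaction was -2.33 ± 0.47 (adjusted p = 0.00346). Of 6 potassium channel genes of photoreceptors, whose median was -0.08, 1 was called, against 5.47% of all genes. That gene was Kcne2, a negative call described above with the cone genes. Kcnj14, an inward-rectifier potassium channel, had 1.68 ± 0.58 and was not called (adjusted p = 0.0859), but was at 2.09 without transgenic Rorb-/- mouse 3 (adjusted p = 0.0233). Kcnv2 of the same list was at -0.72 and not called.

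**Figure D3:**
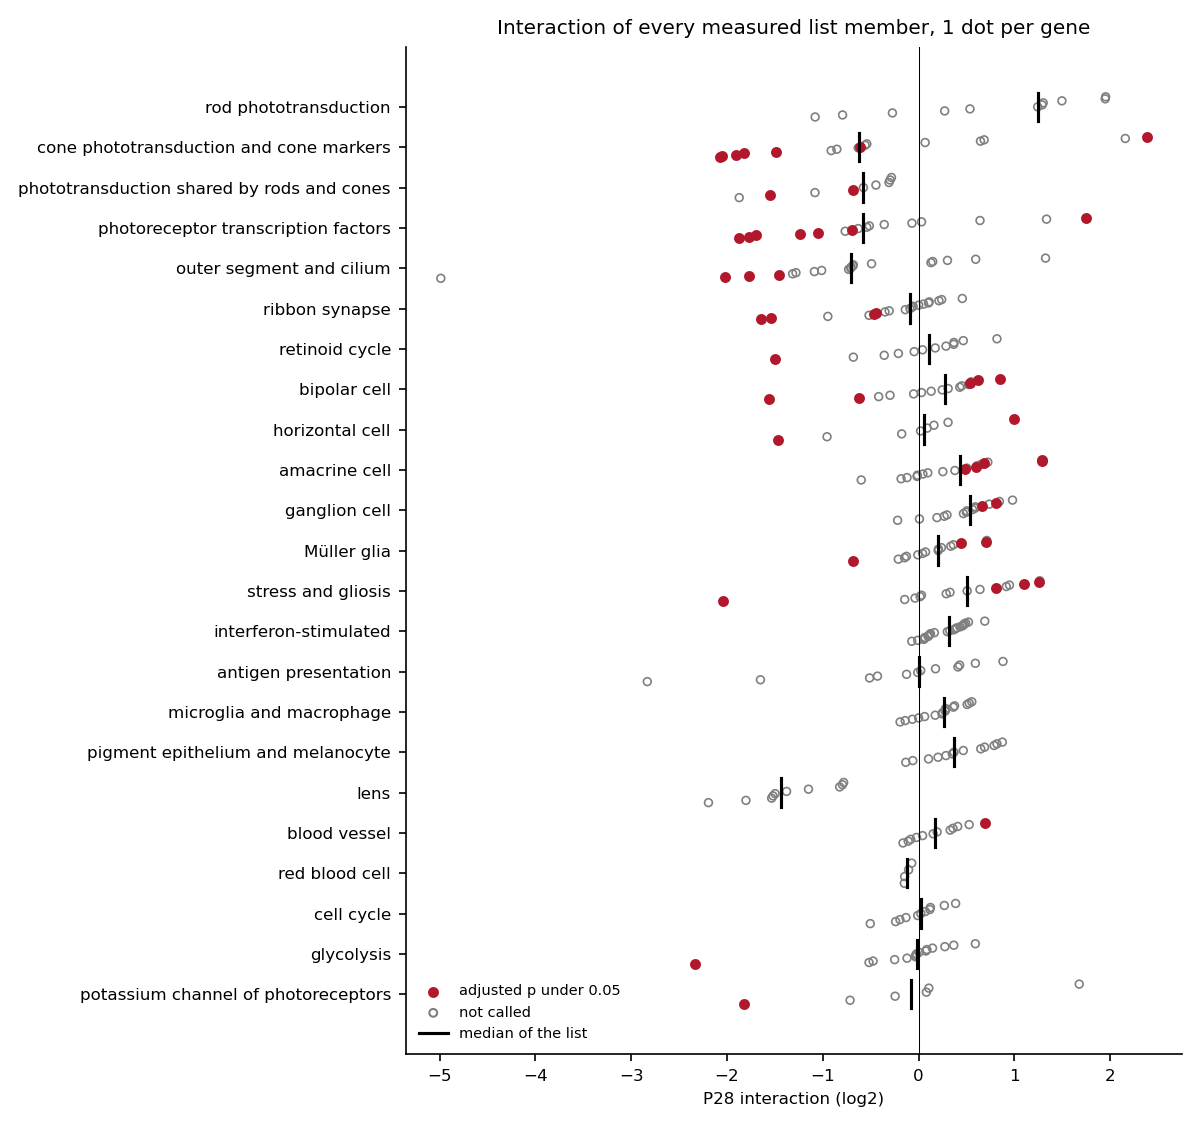
P28 interaction (log2, horizontal) of every measured member of 23 gene lists, 1 dot per gene, with called genes filled in red, other genes open and the list's median as a black bar. The cone, shared phototransduction, transcription factor, outer segment and ribbon synapse lists have medians below 0 with most of their called genes to the left, while the amacrine and ganglion medians, 0.43 and 0.53, lie to the right.

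Inner retinal neurons gave calls mostly above 0. Over all genes 2.95% were called positive, 2.52% were called negative, and 11.7% rose with the transgene in Rorb-/- retinas. Amacrine cell genes had 5 positive and no negative calls among 18 measured, with a median of 0.43, and 8 rose with the transgene in Rorb-/- retinas. The mean level of the list was 6.83 to 7.23 in Rorb-/-;CrxpNrl and 6.61 to 6.69 in Rorb-/- mice, and 8.36 to 8.42 in +/+;CrxpNrl and 8.21 to 8.39 in +/+ mice. The first of these groups thus lay above Rorb-/- mice without overlap and well below the intact groups. Tac1, the substance P precursor, had 9.89, 10.05, 10.57 and 10.57 in Rorb-/-;CrxpNrl mice, against 9.22, 9.16, 9.18 and 8.95 in Rorb-/- mice. It had 9.35, 9.34 and 9.27 in +/+;CrxpNrl mice, against 9.64, 9.47, 9.34 and 9.42 in +/+ mice. The Rorb-/-;CrxpNrl mice lay above every other mouse, and the interaction was 1.29 ± 0.17 (adjusted p = 2.65e-05), or 0.62 with the mean of its probe sets (adjusted p = 0.0015). Npy, the neuropeptide Y precursor, averaged 9.81 ± 0.14 in Rorb-/-;CrxpNrl and 8.46 ± 0.41 in Rorb-/- mice, and 8.45 ± 0.03 in +/+;CrxpNrl and 8.39 ± 0.30 in +/+ mice (SD). Its interaction was 1.29 ± 0.26 (adjusted p = 0.00293). Slc32a1, the vesicular GABA and glycine transporter, had 0.68 ± 0.18 (adjusted p = 0.0261), with 0.09 (adjusted p = 0.663) from the mean of its probe sets and an adjusted p of 0.0679 with only the P28 arrays. Its call ended without any 1 of 8 mice (0.62 to 0.69, adjusted p 0.0506 to 0.077), namely transgenic Rorb-/- mice 3 and 4, Rorb-/- mice 3 and 4, transgenic +/+ mice 1 and 2, and +/+ mice 1 and 2. Ganglion cell genes had 2 positive and no negative calls among 16, with a median of 0.53, and 14 of the 16 rose with the transgene in Rorb-/- retinas. The mean level of the ganglion list was 8.37, 8.57, 9.21 and 9.10 in the 4 transgenic Rorb-/- mice, against 8.09 to 8.36 in Rorb-/- mice, so mice 3 and 4 stood higher than mice 1 and 2. Over the 25 settings the positive calls ranged from 3 to 8 in the amacrine list and from 1 to 8 in the ganglion list.

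Pnoc, Grp, Adcyap1 and Resp18 were singled out after their values were seen, for their likeness to Tac1 and Npy, which the choice therefore fixed. Pnoc, the nociceptin precursor, had 7.89, 7.86, 8.36 and 8.48 in Rorb-/-;CrxpNrl mice, against 7.11, 7.01, 7.07 and 6.96 in Rorb-/- mice. It lay at 4.35 to 4.67 in +/+;CrxpNrl, against 4.67 to 4.82 in +/+ mice. Both Rorb-/- groups were far above the intact groups, and the interaction of Pnoc was 1.27 ± 0.20 (adjusted p = 0.000184). The interaction was 1.17 ± 0.28 for Grp, the gastrin-releasing peptide precursor (adjusted p = 0.012), 1.13 ± 0.24 for Adcyap1, the PACAP precursor (adjusted p = 0.00556), and 1.07 ± 0.23 for Resp18, a protein of secretory granules (adjusted p = 0.00592). In each of these 4 genes all Rorb-/-;CrxpNrl mice lay above all Rorb-/- mice and the +/+ groups overlapped. Sst, the somatostatin precursor, is among the 12 largest positive calls. It had 9.51, 10.13, 9.64 and 9.58 in Rorb-/-;CrxpNrl mice, against 8.81, 8.80, 8.16 and 8.16 in Rorb-/- mice. It lay at 5.92 to 6.30 in +/+;CrxpNrl, against 5.65 to 6.57 in +/+ mice, and the interaction was 1.34 ± 0.32 (adjusted p = 0.012).

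Bipolar and horizontal cell genes were called in both directions, where 2.95% of all genes were called positive and 2.52% negative. Among 16 bipolar genes, 3 were positive and 2 negative. Car8, a carbonic anhydrase-related protein, averaged 9.28 ± 0.30 in Rorb-/-;CrxpNrl and 11.06 ± 0.44 in Rorb-/- mice, and 9.47 ± 0.06 in +/+;CrxpNrl and 9.69 ± 0.19 in +/+ mice (SD). Its interaction was -1.56 ± 0.25 (adjusted p = 0.000225). Vsx1, a homeobox factor of cone bipolar cells, had 0.85 ± 0.19 (adjusted p = 0.00845, and 0.0595 at 0.66 with the mean of its probe sets). Isl1, a LIM homeobox factor of bipolar, amacrine and ganglion cells, had 0.62 ± 0.17 (adjusted p = 0.0239). The call of Isl1 was lost with only the P28 arrays (adjusted p = 0.0558) and without transgenic +/+ mouse 1 (0.57, adjusted p = 0.0752) or +/+ mouse 3 (0.52, adjusted p = 0.0604). Of 8 horizontal cell genes, 1 was called each way. Calb1, the calcium buffer calbindin, had 8.85, 9.08, 9.68 and 9.52 in Rorb-/-;CrxpNrl mice, against 8.70, 8.60, 8.71 and 8.62 in Rorb-/- mice. It had 10.16, 10.26 and 10.10 in +/+;CrxpNrl mice, against 10.30, 10.65, 10.58 and 10.66 in +/+ mice, so the transgenic mice lay higher on the Rorb-/- background and lower on the +/+ background. The interaction was 1 ± 0.22 (adjusted p = 0.00739), or 0.55 with the mean of its probe sets (adjusted p = 0.0317), and the difference within +/+ retinas was not called by itself (adjusted p = 0.483). Lhx1, a LIM homeobox factor of horizontal cells, had -1.47 ± 0.26 (adjusted p = 0.00082, limma). Its difference with the transgene was -0.63 ± 0.17 in Rorb-/- retinas (adjusted p = 0.0093). In +/+ retinas it was 0.83 ± 0.19 and not called (adjusted p = 0.0598), with all +/+;CrxpNrl mice above all +/+ mice.

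Among 15 Müller glia genes, 2 were positive and 1 negative, against 2.95% and 2.52% of all genes. Cp, the copper-binding ferroxidase ceruloplasmin, averaged 11.64 ± 0.14 in Rorb-/-;CrxpNrl and 11.01 ± 0.09 in Rorb-/- mice, and 9.46 ± 0.22 in +/+;CrxpNrl and 9.53 ± 0.18 in +/+ mice (SD), with an interaction of 0.70 ± 0.14 (adjusted p = 0.00267). Apoe, a lipid carrier, had 0.44 ± 0.10 (adjusted p = 0.00709), near the ceiling in both Rorb-/- groups. Car2, a carbonic anhydrase, had -0.68 ± 0.19 (adjusted p = 0.0294), with 0.0879 with only the P28 arrays. Leaving out any 1 of 7 mice ended the call of Car2 (-0.69 to -0.52, adjusted p 0.0502 to 0.0791), namely transgenic Rorb-/- mice 3 and 4, Rorb-/- mice 1 and 3, transgenic +/+ mice 1 and 3, and +/+ mouse 2. Stress and gliosis genes had 3 positive calls and 1 negative among 15, with a median of 0.51, and 0 to 5 positive calls over the 25 settings. Gfap, the intermediate filament of reactive glia, had 8.58, 9.17, 7.79 and 9.16 in Rorb-/-;CrxpNrl mice, against 7.26, 7.23, 7.49 and 7.01 in Rorb-/- mice. It had 6.35, 6.61 and 6.52 in +/+;CrxpNrl mice, against 6.89, 6.42, 6.13 and 5.87 in +/+ mice. The Rorb-/-;CrxpNrl mice lay above all others, and the interaction was 1.26 ± 0.34 (adjusted p = 0.0251). That call ended with only the P28 arrays (adjusted p = 0.1) and without transgenic Rorb-/- mouse 4 (1.10, adjusted p = 0.0718), transgenic +/+ mouse 1 (1.19, adjusted p = 0.0703) or +/+ mouse 1 (1.07, adjusted p = 0.0616).

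Socs3, a feedback inhibitor of cytokine signalling, moved opposite to the other called stress genes. It had 6.41, 7.13, 6.01 and 6.29 in Rorb-/-;CrxpNrl mice, against 9.77, 9.70, 9.40 and 9.11 in Rorb-/- mice. It had 4.82, 4.99 and 4.55 in +/+;CrxpNrl mice, against 5.84, 6.08, 5.57 and 5.62 in +/+ mice. The transgenic mice lay lower on both backgrounds without overlap, and the interaction was -2.04 ± 0.36 (adjusted p = 0.000829, limma). In the +/+ background alone the difference of Socs3 was not called (-0.99 ± 0.26, adjusted p = 0.145). A2m, a protease inhibitor, had 1.10 ± 0.28 (adjusted p = 0.0204), with 0.0966 with only the P28 arrays, and it was not called without transgenic Rorb-/- mouse 4 (0.96, adjusted p = 0.0575) or transgenic +/+ mouse 3 (1, adjusted p = 0.0639).

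No gene of the interferon-stimulated, antigen presentation, microglia and macrophage, pigment epithelium, lens, red blood cell or cell cycle lists was called in limma. The numbers at an unadjusted p under 0.05 were 0 of 22 interferon-stimulated, 7 of 12 antigen presentation, 2 of 16 microglia, 1 of 13 pigment epithelium, 0 of 10 lens, 0 of 4 red blood cell and 1 of 11 cell cycle genes, against 3491 (19.2%) of all genes. Over the 25 settings 0 to 2 antigen presentation genes were called negative, and no gene of the other 6 lists was called. The interferon-stimulated list averaged 7.62 ± 0.35 in Rorb-/-;CrxpNrl and 7.44 ± 0.15 in Rorb-/- mice, and 5.44 ± 0.02 in +/+;CrxpNrl and 5.53 ± 0.08 in +/+ mice (SD), so it was high in both Rorb-/- groups. H2-D1, a major histocompatibility class I gene, had 5.60, 6, 10.19 and 5.95 in Rorb-/-;CrxpNrl mice, against 9.93, 10.52, 9.87 and 10 in Rorb-/- mice. It had 8.07, 8.20 and 6.30 in +/+;CrxpNrl mice, against 8.39, 8.28, 5.60 and 9.07 in +/+ mice. Rorb-/-;CrxpNrl mouse 3 alone lay within the Rorb-/- range. The interaction of H2-D1 was -2.83 ± 1.23 (adjusted p = 0.19) and -3.92 without transgenic Rorb-/- mouse 3 (adjusted p = 0.0282), and its 9 probe sets ranged from -2.83 to 2.13. H2-K1, another class I gene, had -1.65 ± 0.70 (adjusted p = 0.178) and -2.29 without the same mouse (adjusted p = 0.0211). Among 12 blood vessel genes 1 was called, against 5.47% of all genes. That gene was Kdr, a VEGF receptor, at 0.70 ± 0.18 (adjusted p = 0.0187). Kdr was not called with only the P28 arrays (adjusted p = 0.0768) or without transgenic Rorb-/- mouse 4 (0.60, adjusted p = 0.0534) or transgenic +/+ mouse 1 (0.59, adjusted p = 0.0752).

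Markers of tissue next to the retina varied between mice. The mean level of 10 lens genes was 8.06, 6.86, 8.51 and 8.30 in Rorb-/-;CrxpNrl mice, against 11.31, 11.33, 7.79 and 5.16 in Rorb-/- mice. It was 9.02, 8.17 and 8.69 in +/+;CrxpNrl mice, against 7.20, 6.51, 11.14 and 8.14 in +/+ mice. All 10 lens values of the interaction were below 0, with a median of -1.44, and every pair of groups compared overlapped. Cryaa, the alpha crystallin that defines the lens, ranged from 8.09 to 10.55 in Rorb-/-;CrxpNrl mice, against 4.80 to 13.98 in Rorb-/- mice. The 13 pigment epithelium and melanocyte genes averaged 6.84 ± 0.45 in Rorb-/-;CrxpNrl and 6.57 ± 0.63 in Rorb-/- mice, and 5.98 ± 0.13 in +/+;CrxpNrl and 6.14 ± 0.54 in +/+ mice (SD). The part of these tissues in the called interactions was not tested.

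**Figure D4:**
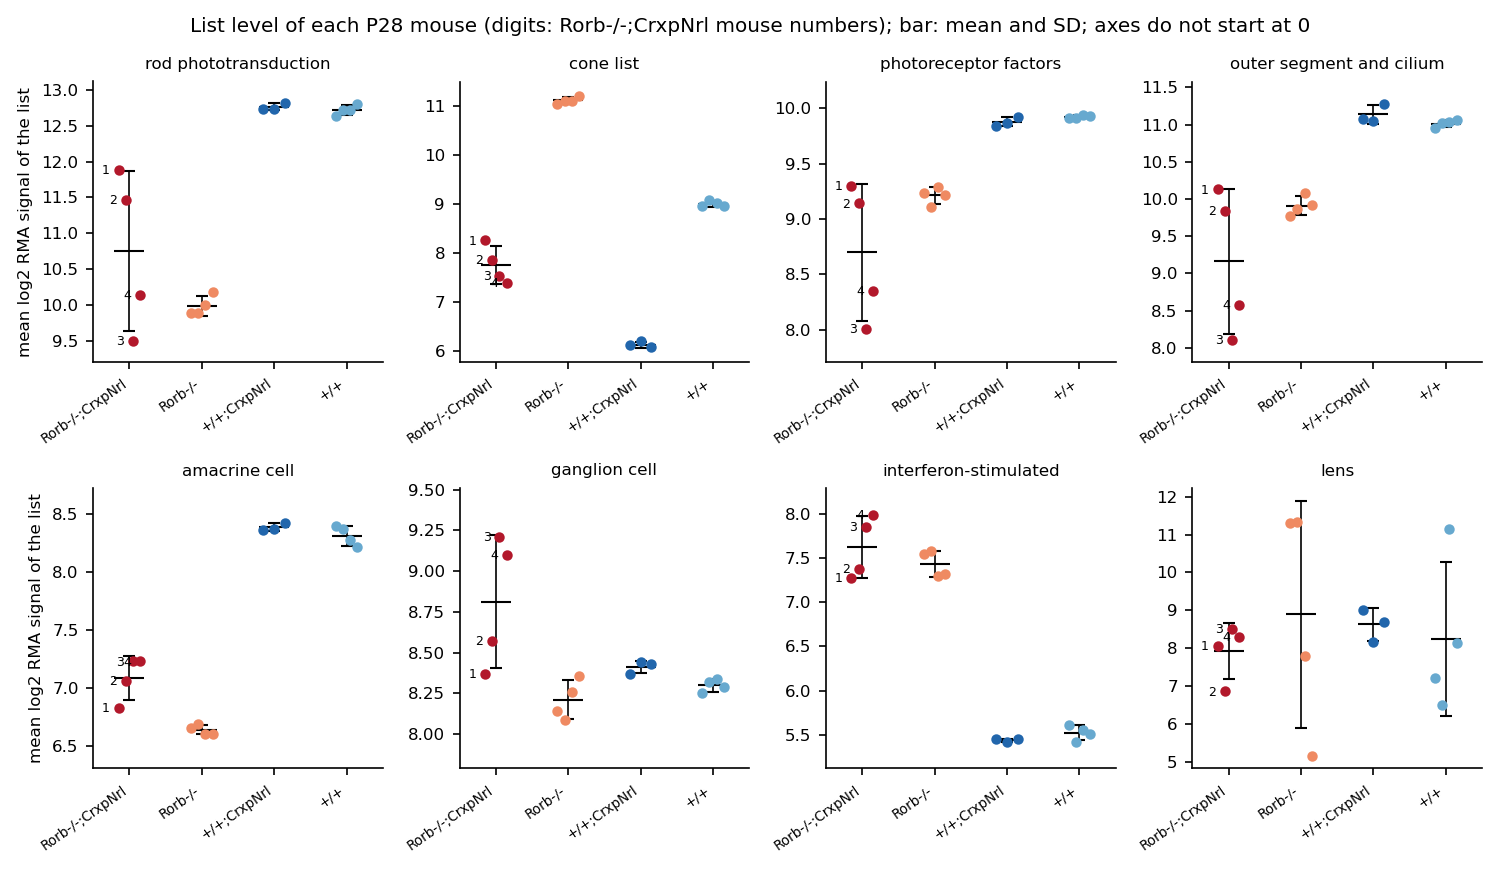
Mean log2 RMA signal of 8 gene lists in each P28 mouse, with the mean and SD of each group and the number of each Rorb-/-;CrxpNrl mouse beside its dot; the axes differ between panels and do not start at 0. Rorb-/-;CrxpNrl mice 1 and 2 lie above mice 3 and 4 in the rod, transcription factor and outer segment lists and below them in the ganglion cell and interferon-stimulated lists.

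The largest negative interactions belonged mainly to genes that were higher in Rorb-/- retinas than in the other 3 groups. The 12 largest by the naming rule were Slco1a5, Tph1, Poteg, Fabp7, Myocd, Pik3ap1, Tc2n, Crxos, Jchain, Akr1b8, Aknaos and Hk2. Slco1a5, an organic anion transporter, had 3.91, 4.07, 3.88 and 3.98 in Rorb-/-;CrxpNrl mice, against 8.01, 8.19, 8.13 and 7.73 in Rorb-/- mice. It lay at 3.79 to 4.06 in +/+;CrxpNrl, against 3.53 to 3.86 in +/+ mice. The interaction was -4.17 ± 0.20 (adjusted p = 4.89e-14), and all groups but Rorb-/- were near the floor, where differences shrink. With the mean of its probe sets it was -2.17. Tph1, the first enzyme of serotonin synthesis, had 4.65, 4.09, 4.12 and 4.06 in Rorb-/-;CrxpNrl mice, against 7.14, 8.14, 7.47 and 8.51 in Rorb-/- mice. It lay at 3.64 to 3.98 in +/+;CrxpNrl, against 3.69 to 3.77 in +/+ mice, near the floor, and the interaction was -3.71 ± 0.33 (adjusted p = 3.49e-08). In Rorb-/-;CrxpNrl retinas neither gene was called against +/+, with 0.19 for Slco1a5 (adjusted p = 0.287) and 0.50 for Tph1 (adjusted p = 0.083).

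Poteg, with an interaction of -3.47 ± 0.69, and Tc2n, with -2.80 ± 0.57, were likewise near the floor in both +/+ groups. Fabp7, a fatty acid-binding protein of immature glia, had 7.03, 6.18, 3.46 and 4.64 in Rorb-/-;CrxpNrl mice, against 9.93, 9.01, 9.08 and 8.89 in Rorb-/- mice. Its interaction was -3.24 ± 0.69 (adjusted p = 0.00533, and 0.065 with only the P28 arrays). Myocd, a coactivator of smooth and cardiac muscle genes, had -2.88 ± 0.38, and Pik3ap1, an adaptor of phosphoinositide 3-kinase in immune cells, -2.83 ± 0.27, or -1.68 with the mean of its probe sets. Akr1b8, an aldo-keto reductase, had -2.48 ± 0.21, and Aknaos had -2.46 ± 0.41. Crxos, transcribed opposite Crx, averaged 6.16 ± 0.99 in Rorb-/-;CrxpNrl and 9.54 ± 0.13 in Rorb-/- mice, and 7.16 ± 0.09 in +/+;CrxpNrl and 7.89 ± 0.35 in +/+ mice (SD). Its interaction was -2.65 ± 0.39 (adjusted p = 8.32e-05), and like Jchain, the joining chain of antibodies (-2.63 ± 0.34, adjusted p = 1.77e-05), it was above +/+ in Rorb-/- retinas and below +/+ in Rorb-/-;CrxpNrl retinas.

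Positive interactions were smaller. The 12 largest by the same rule were Gbp2b, Arr3, Samd11, Calcb, Tes, Hpgd, Col19a1, Vax2os, Nat8f3, Sspn, Sst and Stk17b, from 2.84 to 1.31. Gbp2b, an interferon-induced guanylate-binding protein, had 6.13, 6.55, 6.82 and 7.01 in Rorb-/-;CrxpNrl mice, against 7.17, 3.46, 3.55 and 3.49 in Rorb-/- mice. It lay at 3.02 to 3.51 in +/+;CrxpNrl, against 3.66 to 4.22 in +/+ mice. Rorb-/- mouse 1 exceeded every Rorb-/-;CrxpNrl mouse, and the intact groups were near the floor. The interaction of 2.84 ± 0.82 (adjusted p = 0.0373) was not called with only the P28 arrays (adjusted p = 0.106) or without any 1 of 11 mice (2.52 to 2.94, adjusted p 0.0519 to 0.0905), namely transgenic Rorb-/- mice 3 and 4, Rorb-/- mice 2, 3 and 4, all transgenic +/+ mice, and +/+ mice 1, 2 and 3. Tes, the focal adhesion protein testin, had 7.84, 8.11, 8.89 and 8.45 in Rorb-/-;CrxpNrl mice, against 7.23, 7.03, 7.33 and 7.58 in Rorb-/- mice. It lay at 5.44 to 5.63 in +/+;CrxpNrl, against 5.47 to 6.32 in +/+ mice, and the interaction was 1.45 ± 0.25 (adjusted p = 0.000667).

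The other positive leaders varied in how firmly they were called. Vax2os, transcribed opposite Vax2, had 1.40 ± 0.30 (adjusted p = 0.00527) and was called in all 25 settings. Hpgd, which degrades prostaglandins, had 1.44 ± 0.32 (adjusted p = 0.00759), but 0.23 (adjusted p = 0.555) where probe sets of shared sequence were left out, and 0.83 (adjusted p = 0.0225) with the mean of its probe sets. Col19a1, a collagen, had 1.43 ± 0.33 (adjusted p = 0.0092, and 0.0501 with only the P28 arrays), and Nat8f3, an acetyltransferase family member, 1.38 ± 0.32 (adjusted p = 0.00901, and 0.0724 with only the P28 arrays). The means of their probe sets gave 0.91 for Col19a1 and 0.63 for Nat8f3 (adjusted p = 0.0169 and 0.0225). Calcb, a calcitonin gene-related peptide precursor near the floor in 3 groups, had 1.51 ± 0.41 (adjusted p = 0.025, and 0.139 with only the P28 arrays). Its call ended without transgenic Rorb-/- mouse 4 (1.42, adjusted p = 0.0611) or transgenic +/+ mice 2 or 3 (1.48 and 1.46, adjusted p = 0.0609 and 0.0604). Stk17b, a kinase linked to apoptosis, had 1.31 ± 0.34 (adjusted p = 0.0197), and 1.21 without transgenic +/+ mouse 2 (adjusted p = 0.0625), with an adjusted p of 0.11 with only the P28 arrays. Sspn, a membrane protein of the dystrophin complex, had 1.36 ± 0.40 (adjusted p = 0.0415). Its adjusted p was 0.0853 with only the P28 arrays and 0.0631, at 0.80, with the mean of its probe sets, and leaving out any 1 of 9 mice ended its call (1.12 to 1.41, adjusted p 0.0574 to 0.124), namely transgenic Rorb-/- mice 2 and 4, Rorb-/- mice 1 and 2, transgenic +/+ mice 1 and 2, and +/+ mice 2, 3 and 4.

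**Figure D5:**
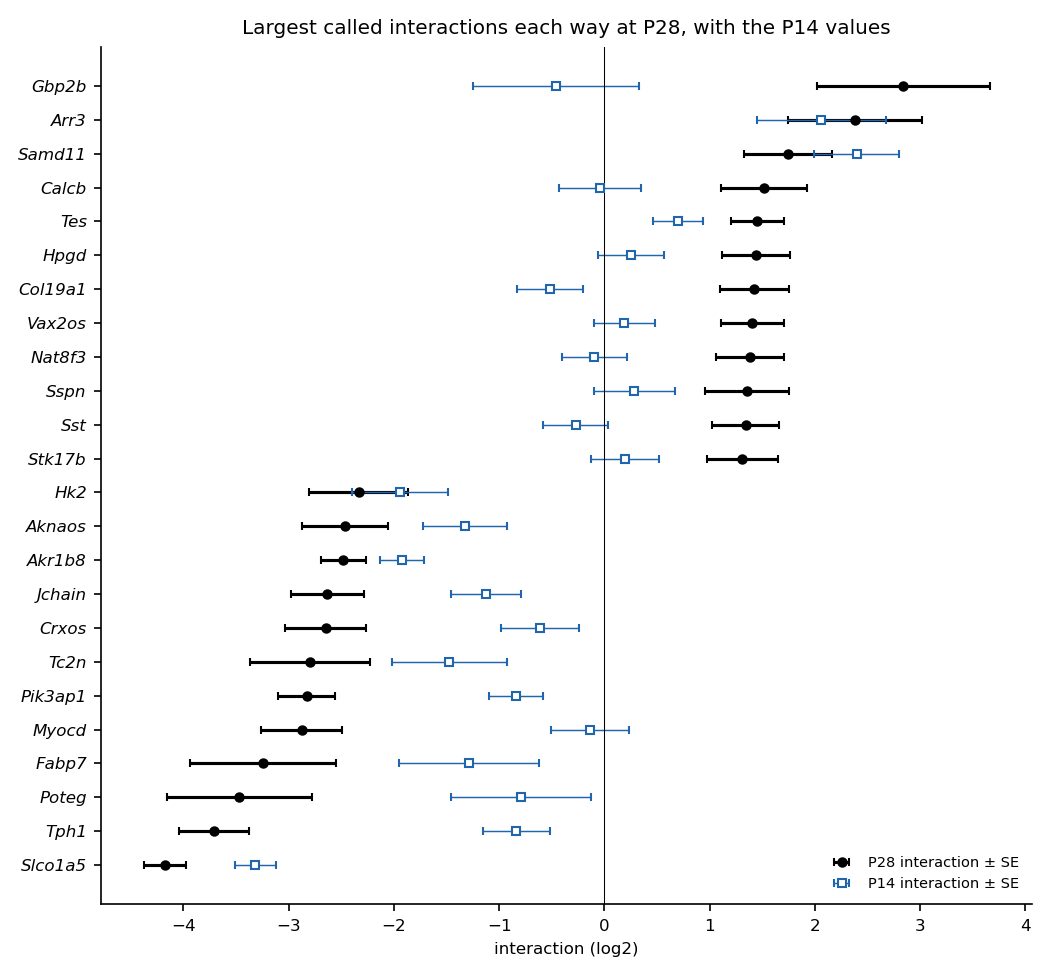
Interaction (log2) of the 12 largest positive and 12 largest negative P28 calls, with the P28 value and SE as black circles and the P14 value and SE of the same genes as blue open squares. Arr3, Samd11, Slco1a5, Akr1b8 and Hk2 lie far from 0 at both ages, while Gbp2b, Calcb, Sst and Myocd lie near 0 or on the other side at P14.

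The same interaction at postnatal day 14 (P14), from 16 other mice of the same 4 genotypes, was called for 268 genes, 1.47% of those tested, with 72 positive (0.396%) and 196 negative (1.08%). P14 and P28 share no arrays, but the single fit uses the same estimate of each gene's spread for both ages. The calls at both ages are therefore not fully independent. Of the 537 positive P28 genes, 18 were also called positive at P14, which is 3.35% of the P28 calls and 25% of the 72 positive P14 calls. Of the 459 negative P28 genes, 115 were also called negative at P14, which is 25.1% of the P28 calls and 58.7% of the 196 negative P14 calls. None was called in the opposite direction. The sign at P14 was positive for 73.7% of the positive P28 genes, against 53.1% of all genes, and negative for 86.7% of the negative P28 genes, against 46.9% of all genes. The median interaction of the positive P28 genes was 0.60 at P28 and 0.11 at P14, and that of the negative ones -0.75 at P28 and -0.33 at P14. Since these genes were picked for their P28 values, a smaller median at P14 was fixed in part by the choice.

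The difference of the interaction between the ages (P28 minus P14) was called for 13 genes, 0.0715% of those tested, with 4 positive (0.022%) and 9 negative (0.0495%). Kcne2, the cone-listed potassium channel subunit, had an interaction of -1.82 at P28 and -0.38 at P14, a difference of -1.44 (adjusted p = 0.00223). Tph1 had -3.71 at P28 and -0.83 at P14, a difference of -2.87 (adjusted p = 0.00548). Both differences were called in every setting run that holds both ages. Several rod genes had larger values at P14: Cngb1 had 1.29 at P28 and 2.30 at P14 (adjusted p at P14 = 0.00603), and Slc24a1 had 1.5 at P28 and 2.52 at P14 (adjusted p at P14 = 0.00769). Cnga1 had 1.95 at P28 and 2.86 at P14 (adjusted p at P14 = 0.0102). Their differences between the ages were not called (adjusted p = 0.643, 0.691 and 0.783). Crx had -1.05 at P28 and -0.12 at P14, and Opn1mw -1.91 at P28 and -0.35 at P14, and neither difference was called (adjusted p = 0.309 and 0.285). Without single mice the number of called differences ranged from 4 to 184: it was 184 without transgenic Rorb-/- mouse 1, 6 and 8 without its mice 3 and 4, 4, 7 and 8 without transgenic +/+ mice 1, 2 and 3, and 7, 6 and 6 without +/+ mice 2, 3 and 4.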

How the data were processed

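RNA of both retinas of each mouse was hybridised to 1 array, and 31 arrays from P14 and P28 were given. The authors deposited log2 signals from RMA, per the submitters' processing notes, and the RMA version is not given in the sources used here. RMA corrects background, normalizes by quantiles and summarises each probe set. The values were used as deposited. Of 45101 probe sets, 34958 had 1 gene symbol, 932 several and 9211 none, and 64 were controls. The 34945 probe sets used were reduced to 1 for each of 18193 genes, that with the highest mean over all arrays, and 204 symbols were not matched to RefSeq.

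Groups came from the age and genotype labels. A single limma fit (limma 3.58.1 in R 4.3.3, lmFit with 8 group means, contrasts, eBayes with trend) gave every contrast, with Benjamini-Hochberg adjustment over all genes and a threshold of 0.05. Values after ± are SE for differences and SD for levels. The p-values set each contrast against the spread between mice, pooled over the 8 groups and moderated over genes. An equal spread in every group was assumed. On simulated data with 200 changed genes among 18193, the P28 interaction recovered 86% of changes of 1 log2 unit and 100% of changes of 2, with 15 false calls. The simulated noise was independent between genes and had the same SD in every group. It thus left out the wider spread of the Rorb-/-;CrxpNrl mice, and the rates need not hold for these data.

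The members and gene lists were chosen with earlier results of these data known. The text names Rorb, Nrl, the 12 largest calls each way, up to 4 members of each list and the 5 largest age differences each way. Unnamed expressed sequences and sex-linked genes were left out of these choices. Values of further list members, and Pnoc, Grp, Adcyap1, Resp18, Tecrl and Ccdc191, were added after they were seen. Promoters were matched by symbol (RefSeq, GRCm38.p6) and figures were drawn with Python 3.11.15, pandas 2.3.3 and matplotlib 3.10.9. Alternatives covered normalization, choice of probe set, dim genes, prior variance, array weights, the arrays in the fit, the replicate number, sex-linked transcripts, a size limit, the ceiling and floor, and each of 15 mice left out.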

Additional observations from a re-analysis of the deposited data

Results flagged for a closer look

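Among 106 genes examined in the 3 P28 groups of 4 mice, 1 mouse stood apart from the other 3 in 17 of 318 gene and group pairs, where chance at 1 in 20 gives 15.9. Gnb3 read 11.11 in +/+ mouse 1, and 11.24 to 11.25 in the others. Pde6c read 9.24 in +/+ mouse 4, and 10.10 to 10.23 in the others. Prph2 read 5.87 in Rorb-/-;CrxpNrl mouse 1, and 4.17 to 4.42 in the others, and it read 11.25 in Rorb-/- mouse 3, and 5.07 to 5.59 in the others. Tulp1 read 12.98 in +/+ mouse 4, and 12.84 in the others.

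The class I genes H2-D1 and H2-K1 read 10.19 and 9.62 in Rorb-/-;CrxpNrl mouse 3, and no more than 6 and 7.20 in the others of that group. H2-K1 also read 10.24 in Rorb-/- mouse 2, and 9.49 to 9.53 in the others. Gbp2b read 7.17 in Rorb-/- mouse 1, and 3.46 to 3.55 in the others. Resp18 read 9.80 in Rorb-/- mouse 2, and 10.02 to 10.05 in the others. Calcb read 2.95 in +/+ mouse 4 and Slco1a5 3.53 in +/+ mouse 2, both below the rest of the group. Vax2os read 7.95 and Tph1 4.65 in Rorb-/-;CrxpNrl mouse 1, both above the rest. Tnfrsf13c read 4.40, below the rest, and Pax7 3.91, above the rest, in Rorb-/-;CrxpNrl mouse 3. Ccdc191 read 5.35 in Rorb-/- mouse 3, and 4.55 to 4.58 in the others.

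In 9 named genes the interaction differed between P28 and P14 by limma's test of the difference (P28 minus P14). Nrn1l differed by 0.85 (adjusted p = 0.00548), with 0.07 at P28 and -0.78 at P14. Tnfrsf13c differed by -1.64 (adjusted p = 0.00325), with 0.01 at P28 and 1.65 at P14. Tph1 differed by -2.87 and Kcne2 by -1.44. Each of these 4 kept its call in every setting in which it was tested.

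The other 5 lost the call without single P28 mice. Ntrk3 differed by 1.26 (adjusted p = 0.0312), a call that ended without Rorb-/-;CrxpNrl mouse 3, +/+;CrxpNrl mice 1 or 2 or +/+ mouse 4 (1.20 to 1.26, adjusted p 0.0506 to 0.0871), and at 0.50 with the mean of its probe sets (adjusted p = 0.415). Plin3 differed by 1.02 (adjusted p = 0.0454), which ended without any 1 of 10 mice (0.93 to 1.04, adjusted p 0.0551 to 0.117): all but Rorb-/-;CrxpNrl mice 1 and 2, Rorb-/- mouse 4, +/+;CrxpNrl mouse 3 and +/+ mouse 1. It also ended with the sex-linked covariate (1, adjusted p = 0.0638). Myocd differed by -2.74 (adjusted p = 0.0374), which ended without any 1 of 11 mice (-2.81 to -2.47, adjusted p 0.0506 to 0.0871): all but Rorb-/-;CrxpNrl mice 1 and 2 and Rorb-/- mice 2 and 4. The mean of its probe sets gave -1.82 (adjusted p = 0.115). Pik3ap1 differed by -1.99 (adjusted p = 0.0322), or -1.20 with the mean of its probe sets, which ended without Rorb-/-;CrxpNrl mouse 3, +/+;CrxpNrl mouse 1 or +/+ mice 2, 3 or 4 (-2 to -1.83, adjusted p 0.0506 to 0.0871). Pax7, near the floor in all P28 groups, differed by -1.58 (adjusted p = 0.0322), which ended without Rorb-/-;CrxpNrl mouse 4, Rorb-/- mouse 1, +/+;CrxpNrl mice 1 or 3 or +/+ mice 2, 3 or 4 (-1.61 to -1.46, adjusted p 0.0506 to 0.0871).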

How the results depend on the processing

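Of 74 named calls, 43 were called in every setting run for them (up to 25), and the report gives those that were not. The 996 interaction calls became 2312 with array weights (1419 positive, 893 negative), of which 992 were among the 996, and 400 with only the P28 arrays (175 positive, 225 negative), of which 389 were. With only the P28 arrays fewer arrays estimate the spread, and why array weights raised the count was not tested. Without single mice the calls ranged from 618 to 2078, positive ones from 302 to 1319, negative ones from 316 to 759, those of the transgene in +/+ retinas from 19 to 50, and the 13 age differences from 4 to 184. A size of at least 1 left 173 calls, 42 positive and 131 negative. The 40 calls in +/+ retinas became 77 with array weights and 25 with only the P28 arrays. Age differences numbered 7 with the mean of probe sets, 356 with array weights and 31 with the replicate block. A changed ceiling and floor marked 6 and 94 called genes, in place of 15 and 52. Values that changed sign were not called: Opn1sw at -0.77 with the mean of probe sets, Pde6a at -0.0062 with array weights and -0.0122 without Rorb-/-;CrxpNrl mouse 1, Gnb1 at -0.039 without the same mouse, and Sag at 0.0247 without Rorb-/-;CrxpNrl mouse 3. Without single mice these ranged from -0.039 to 0.64 for Gnb1, -0.0122 to 1.11 for Pde6a and -0.48 to 0.0247 for Sag. Deviations of same-numbered mice correlated at 0.06 to 0.15 between Rorb-/-;CrxpNrl and Rorb-/- mice and at 0.21 to 0.37 between +/+;CrxpNrl and +/+ mice. Every +/+ pair was over 0.1 and not every Rorb-/- pair was, and no label says what a number marks. The replicate block gave 1333 interaction calls, 955 of them among the 996, with Pde6h at 2.29 (adjusted p = 0.0416) and Tulp1 at -1.41 (adjusted p = 0.0518), and changed no other named call. A P28 group lay near the ceiling in 7 of the 11 rod genes, and compression there was not tested.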
